A study of Arabidopsis thaliana with 12 samples.

Results

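Hypoxia alone was compared with control conditions in roots of Arabidopsis thaliana Col-0, across 16550 genes. The comparison rested on 6 of the 12 arrays of the series, 3 from hypoxic roots and 3 from control roots. Members were all rows of the deposited table that name 1 gene, with 1 row per gene, and 14745 of the 16550 genes were listed only by a locus code. The Col-0 plants, all wild type, had been grown in hydroponic culture for 32 days and were harvested 39 days old. Hypoxic roots had spent the last 7 days in hypoxic nutrient medium with no arsenate, and control roots the same 7 days untreated. The other 2 groups, used below only where named, were roots given 250 µM arsenate as Na2HAsO4 in hypoxic medium (combination) and roots given it without hypoxia (arsenic). The labels give no oxygen content for the hypoxic medium, and no root zone or cell type is named. In such bulk samples fewer cells of a type and less RNA per cell cannot be told apart.

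Low oxygen limits respiration, and plant cells then draw more of their energy from glycolysis, whose products are passed on to ethanol, lactate and alanine. The response is switched on by ethylene response factors of group VII, which are broken down while oxygen is present and persist when it is scarce. Their targets include fermentation enzymes, calcium sensors, regulators that limit the response, and many small proteins of unknown function. In roots, prolonged low oxygen also arrests growth.

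The deposited values are log2 signals after RMA, a method that corrects background, brings arrays to one distribution and combines probes, so 1 unit is a 2-fold difference. The array medians over the genes tested lay between 4.87 and 4.95 in hypoxia and between 5.02 and 5.06 in control, and the lower quartiles between 3.18 and 3.39 and between 3.01 and 3.17. Arrays of the hypoxia group correlated with each other across genes at r from 0.972 to 0.980, arrays of the control group at r from 0.984 to 0.991, and arrays of the 2 groups with each other at r from 0.930 to 0.943. Genes are not independent replicates, so these values carry no test. A gene was called when its adjusted p was under 0.05 in a limma fit of all 12 arrays.

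Under hypoxia 4060 of 16550 genes were called (24.5%), of which 1791 rose (10.8%) and 2269 fell (13.7%). Without control array 2 the count of rises was 1112. A change of at least 2-fold was called for 1586 genes (9.58%), with 587 rises (3.55%) and 999 falls (6.04%). Among the largest changes rises outnumbered falls. At least 8-fold, 57 genes rose and 51 fell, and at least 16-fold, 18 rose and 7 fell. The hypoxia and control arrays did not overlap for 6676 genes (40.3%), and for 3965 of the 4060 called ones (24% of all genes). The median log2 difference over all genes was 0.07, the median of the genes that rose 0.79 and of those that fell -0.93. When each array was re-centred on its own median, the median of all genes shifted by 0.13 and 63.2% of the calls were rises, against 44.1% with the values as deposited, so the balance of rises and falls depended on the centring. Of the 1805 genes with a symbol, 10.9% rose and 17.2% fell, and of the locus-coded genes 10.8% and 13.3%.

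The strongest rises were in genes known only by a locus code, several of them on the list of core hypoxia genes described below. AT5G10040 had log2 signals of 11.04, 11.90 and 11.93 on the hypoxia arrays, against 3.48, 3.24 and 3.70 on the control arrays. AT3G29970 had 10.68, 11.02 and 10.63 on the hypoxia arrays, against 3.18, 2.95 and 3.19 on the control arrays. For both genes the lowest hypoxia array stood more than 6 log2 units above the highest control array. AT5G10040 rose 284-fold (log2 difference 8.15, SE 0.29, adjusted p = 3.62e-09) and AT3G29970 204-fold (log2 difference 7.67, SE 0.15, adjusted p = 6.36e-12).

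AT1G12805 had 10.30, 10.88 and 11.14 on the hypoxia arrays, against 3.46, 3.63 and 4.15 on the control arrays, and AT2G17850 had 8.54, 10.34 and 10.12 on the hypoxia arrays, against 2.96, 2.63 and 2.86 on the control arrays. In both, every hypoxia array lay far above every control array, and hypoxia array 1 was the lowest of the hypoxia group. AT1G12805 rose by 7.03 (SE 0.24, adjusted p = 2.58e-09) and AT2G17850 by 6.85 (SE 0.39, adjusted p = 3e-07). On all 3 control arrays AT2G17850, AT4G33560 and AT4G26460 lay below the array's lower quartile, so their control signal was near the low end of the scale and the fold is less certain there. AT4G33560 rose 53.2-fold (5.73, SE 0.42) and AT4G26460 40.7-fold (5.35, SE 0.52).

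AT4G32950 had 8.18, 8.82 and 10.06 on the hypoxia arrays, against 3.32, 3.48 and 3.46 on the control arrays. It rose 48.4-fold (log2 difference 5.60, SE 0.45, adjusted p = 3.74e-06). The next rises were AT1G77150 at 5.35 (SE 0.35), AT2G14247 at 5.32 (SE 0.58) and AT2G30670 at 5.07 (SE 0.41), none of which has a name in the tables used. The 2 named genes among the 12 largest rises encode enzymes. BGLU31 (AT5G24540), a beta-glucosidase, which removes glucose from conjugates, had 9.58, 9.55 and 7.57 on the hypoxia arrays, against 3.96, 4.15 and 4.27 on the control arrays, and rose 27.3-fold (log2 difference 4.77, SE 0.62, adjusted p = 0.000146). PRX52 (AT5G05340), a class III peroxidase of the kind secreted into the cell wall, had 10.56, 9.68 and 7.76 on the hypoxia arrays, against 4.80, 5.02 and 4.60 on the control arrays, and rose 23.1-fold (log2 difference 4.53, SE 0.57, adjusted p = 0.000116). In both, hypoxia array 3 was the lowest of its group and still above every control array.

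**Figure D1:**
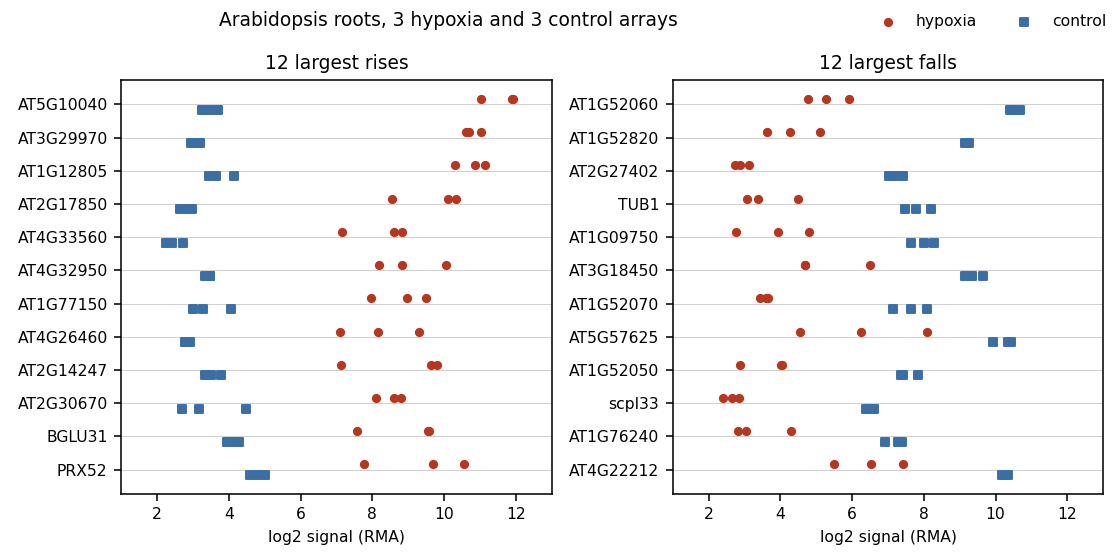
Log2 signal (RMA) on the x axis for the 12 largest rises (left) and the 12 largest falls (right), with 3 hypoxia arrays as red circles above 3 control arrays as blue squares for each gene. In all 24 genes the arrays of the groups do not overlap, which was a condition for naming them, and AT5G10040 has the widest distance at 8.15 log2 units between the group means.

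Among the falls, AT1G52060 led. Its log2 signals were 4.76, 5.92 and 5.26 on the hypoxia arrays, against 10.47, 10.67 and 10.39 on the control arrays, a fall of 36.7-fold (log2 difference -5.20, SE 0.31, adjusted p = 4.41e-07). AT1G52820 had 3.63, 5.10 and 4.27 on the hypoxia arrays, against 9.15, 9.20 and 9.25 on the control arrays, and fell 29.1-fold (log2 difference -4.86, SE 0.46, adjusted p = 1.4e-05). No hypoxia array of either gene came within 4 log2 units of a control array.

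TUB1 (AT1G75780), a beta-tubulin and thus a building block of microtubules, had 3.06, 4.48 and 3.37 on the hypoxia arrays, against 7.47, 8.19 and 7.78 on the control arrays. It fell 18.1-fold (log2 difference -4.18, SE 0.40, adjusted p = 1.4e-05), with hypoxia array 2 nearest the controls. scpl33 (AT3G17180), a serine carboxypeptidase-like protein, had 2.41, 2.85 and 2.64 on the hypoxia arrays, against 6.62, 6.50 and 6.37 on the control arrays. Its 3 hypoxia arrays lay below the lower quartiles, and it fell 14.6-fold (log2 difference -3.87, SE 0.18, adjusted p = 6.65e-08). AT2G27402 fell by 4.29 (SE 0.30), with its 3 hypoxia arrays below the lower quartiles as well. AT1G09750 fell by 4.14, AT3G18450 by 4.09, AT1G52070 by 4.07, AT5G57625 by 3.94, AT1G52050 by 3.89, AT1G76240 by 3.81 and AT4G22212 by 3.80. AT5G57625 varied most within hypoxia of the 12, at 4.53, 8.09 and 6.25 on the 3 arrays, against 9.92, 10.42 and 10.35 in control.

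The core hypoxia response list holds 54 loci that earlier work on seedlings under low oxygen found induced across cell types. Of the 27 measured members, 21 rose (10.8% of all genes did), none fell and 6 were not called. Their median log2 difference was 2.51, beside 0.07 for all genes. ADH1 and PDC1, which encode the best known fermentation enzymes, were not analysed here.

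The measured fermentation gene PDC2 (AT5G54960) encodes pyruvate decarboxylase, the first enzyme of ethanol fermentation. It had 7.22, 6.59 and 7.24 on the hypoxia arrays, against 5.15, 4.85 and 4.45 on the control arrays, and rose 4.61-fold (log2 difference 2.20, SE 0.21, adjusted p = 1.73e-05). AlaAT1 (AT1G17290) encodes alanine aminotransferase, which turns pyruvate into alanine. It had 10.80, 10.35 and 10.36 on the hypoxia arrays, against 8.46, 8.51 and 8.29 on the control arrays, and rose 4.23-fold (log2 difference 2.08, SE 0.17, adjusted p = 4.12e-06). The arrays of the groups were well apart for both enzymes.

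The regulators of the list were more variable. HRA1 (AT3G10040), a transcription factor that attenuates the hypoxia response, had 5.32, 7.92 and 8.88 on the hypoxia arrays, against 4.09, 3.88 and 3.61 on the control arrays. All hypoxia arrays lay above all control arrays, but hypoxia array 1 exceeded the highest control array by only 1.23. HRA1 rose 11.4-fold (log2 difference 3.51, SE 0.68, adjusted p = 0.00246). CML38 (AT1G76650), a calmodulin-like calcium sensor, had 7.87, 8.22 and 7.91 on the hypoxia arrays, against 7.55, 4.88 and 3.94 on the control arrays, so that control array 1 stood almost level with the hypoxia arrays and the other 2 controls far below. It was called at 2.54 (SE 0.73, adjusted p = 0.0229), and the call was lost without hypoxia array 2 (log2 difference 2.43, adjusted p = 0.0673), without control array 2 (log2 difference 2.25, adjusted p = 0.0864), without control array 3 (log2 difference 1.78, adjusted p = 0.0904) and in a fit of the 6 arrays alone (log2 difference 2.54, adjusted p = 0.0532). FHL (AT5G02200), a relative of a transport factor for the light receptor phytochrome A, rose by 1.14 (SE 0.21, adjusted p = 0.00199).

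The other members that rose have no name in the tables used. AT3G03270 had 10.38, 10.88 and 10.62 on the hypoxia arrays, against 5.98, 6.27 and 6.21 on the control arrays, and AT4G27450 had 11.72, 11.67 and 11.61 on the hypoxia arrays, against 7.74, 7.82 and 7.89 on the control arrays. Both were steady within each group, and they rose 22.2-fold (4.47, SE 0.17) and 14.4-fold (3.85, SE 0.13). Rises of 2 to 5 log2 units were also measured for AT4G24110 (4.30), AT3G27220 (3.38), AT3G23170 (3.23), AT1G19530 (2.96), AT5G44730 (2.60), AT4G10265 (2.51), AT5G66985 (2.46) and AT5G47060 (2.29). AT4G17260 and AT1G26270 rose by 1.78 and 1.34. In 15 of the 21 core genes that rose, hypoxia array 1 was the hypoxia array nearest the controls. The median excess over the control mean in these 21 genes was 2.38 on hypoxia array 1, 3.56 on array 2 and 3.48 on array 3.

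The 6 members that were not called did not act alike. AT5G04120 had 3.42, 7.68 and 3.25 on the hypoxia arrays, against 3.43, 3.38 and 3.40 on the control arrays, a high signal on hypoxia array 2 alone. AT5G42200 had 5.84, 7.91 and 8.79 on the hypoxia arrays, against 6.12, 6.45 and 6.43 on the control arrays, with hypoxia array 1 below all controls and the other 2 above. It was called without hypoxia array 1 (log2 difference 2.02, adjusted p = 0.00312) and with the replicate block (log2 difference 1.18, adjusted p = 0.042). AT1G72940 and AT5G45960 were dim in both groups, with means between 2.29 and 3.07 under hypoxia and between 1.83 and 3.03 in control. AT2G15880 and AT3G10020 had log2 differences of 0.63 (adjusted p = 0.0849) and -0.63 (adjusted p = 0.0717). AT2G15880 was called without hypoxia array 1 (log2 difference 0.86, adjusted p = 0.0266) and with re-centred arrays, and AT3G10020 without hypoxia array 2 (log2 difference -0.80, adjusted p = 0.0412) and with the replicate block.

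**Figure D2:**
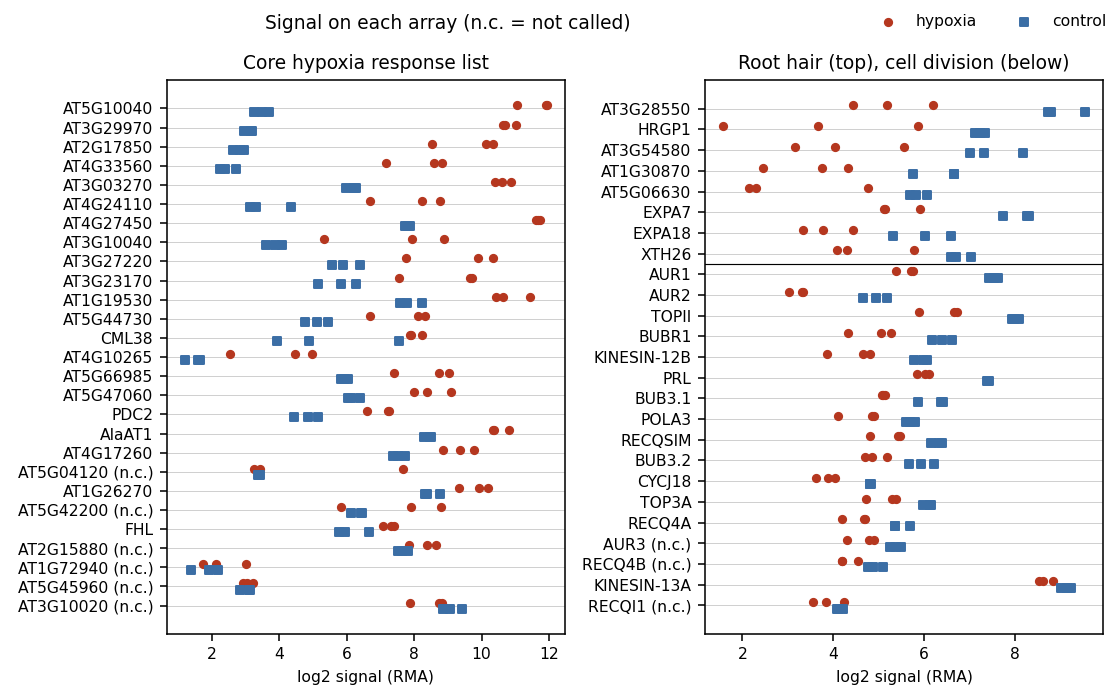
Log2 signal (RMA) on the x axis on each of 3 hypoxia arrays (red circles) and 3 control arrays (blue squares), for the 27 measured core hypoxia genes (left), the 8 root hair genes (right, above the line) and the 17 cell division genes (right, below the line), ordered by log2 difference. By group mean the 21 core genes that rose lie to the right under hypoxia and the root hair and cell division genes to the left. The mark n.c. stands for the 6 core genes and 3 cell division genes that were not called. Not all of these 6 core genes lie to the right, and AT3G10020 lies to the left (-0.63).

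The genes of central carbon metabolism counted here did not shift as a block, and they are too few to stand for whole pathways. Of 6 measured genes of glycolysis and fermentation, 2 rose, 3 fell and 1 was not called, and their median of -0.01 turned positive when the arrays were re-centred (0.12). Beside PDC2, GAPC2 (AT1G13440), cytosolic glyceraldehyde-3-phosphate dehydrogenase, rose by 0.68 (SE 0.14, adjusted p = 0.0032), at 11.95, 11.86 and 11.98 on the hypoxia arrays, against 11.20, 11.30 and 11.24 on the control arrays. PDC3 (AT5G01330), a second pyruvate decarboxylase gene, fell by 1.07 (SE 0.20) to near the lower quartile, and the cytosolic enolase ENOC (AT2G29560) by 0.83 (SE 0.15). PGM, a phosphoglycerate mutase, had 6.73, 8.03 and 8.37 on the hypoxia arrays, against 7.10, 7.09 and 7.42 on the control arrays. Its log2 difference of 0.50 was not called (adjusted p = 0.325), whereas without hypoxia array 1, the lowest of its group, the log2 difference was 0.99 (adjusted p = 0.0168). The triose phosphate isomerase gene TPI fell by 0.52 (adjusted p = 0.0344), a call that was lost without any 1 of hypoxia arrays 1 and 3 and the 3 control arrays and with re-centred arrays (log2 differences from -0.55 to -0.39) but not without hypoxia array 2.

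In the tricarboxylic acid and glyoxylate cycles, 2 of 12 measured genes rose, 3 fell and 7 were not called. ICL (AT3G21720) encodes isocitrate lyase, the enzyme by which the glyoxylate cycle bypasses the carbon losses of respiration. It had 8.88, 8.45 and 7.88 on the hypoxia arrays, against 3.89, 4.38 and 4.70 on the control arrays, and rose 16.9-fold (log2 difference 4.08, SE 0.34, adjusted p = 5.23e-06), the largest change of the 12. The falls included 2 subunits of succinate dehydrogenase, which links the cycle to the respiratory chain. SDH1-2 (AT2G18450) had 5.56, 7.18 and 6.61 on the hypoxia arrays, against 8.11, 8.25 and 8.53 on the control arrays, and fell by 1.85 (SE 0.35, adjusted p = 0.00228), and SDH2-2 (AT5G40650) had 5.70, 5.70 and 5.30 on the hypoxia arrays, against 7.15, 6.63 and 6.88 on the control arrays, and fell by 1.32 (SE 0.22, adjusted p = 0.00104). Their paralogs SDH1-1 (-0.31, adjusted p = 0.138) and SDH2-3 (0.14, adjusted p = 0.536) were not called. IDH-IV, a subunit of mitochondrial isocitrate dehydrogenase, rose by 0.74. The cytosolic enzyme gene cICDH fell by 0.42 (adjusted p = 0.0362), a call lost without hypoxia array 2 or 3 or any 1 control array, with re-centred arrays, with the 6 arrays alone and with the replicate block (log2 differences from -0.46 to -0.29).

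Root hair genes fell as a group. All 8 measured members of a list of 24 fell, beside 13.7% of all genes, with a median of -2.82. Root hairs are tubular outgrowths of epidermal cells whose walls are rich in extensins and loosened by expansins. HRGP1 (AT3G54590), a hydroxyproline-rich wall glycoprotein, had 1.58, 5.87 and 3.66 on the hypoxia arrays, against 7.12, 7.33 and 7.23 on the control arrays. All hypoxia arrays lay below all control arrays, but the hypoxia arrays themselves spread over more than 4 log2 units. HRGP1 fell 11.5-fold (log2 difference -3.53, SE 0.72, adjusted p = 0.00343). EXPA7 (AT1G12560), an expansin of root hairs, had 5.14, 5.90 and 5.11 on the hypoxia arrays, against 7.74, 8.30 and 8.27 on the control arrays, and fell 6.59-fold (log2 difference -2.72, SE 0.24, adjusted p = 8.08e-06). EXPA18 (AT1G62980), its close relative, fell by 2.13 (SE 0.34), and XTH26 (AT4G28850), a xyloglucan-modifying enzyme of root hairs, by 2.06 (SE 0.40). The locus-coded members AT3G28550, AT3G54580, AT1G30870 and AT5G06630 fell by 3.74, 3.25, 2.85 and 2.78. In all 8 genes hypoxia array 2 was the hypoxia array nearest the controls. The summed log2 signal of the 8 genes was 26.3, 42.8 and 32.1 on the hypoxia arrays, against 54.4, 58.8 and 57.2 on the control arrays, so the groups stayed apart on every array.

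Across all 999 genes that fell at least 2-fold, hypoxia array 2 was nearest the controls in 504, array 3 in 307 and array 1 in 188. Among the 587 genes that rose at least 2-fold, hypoxia array 1 was nearest in 233, array 3 in 211 and array 2 in 143. For these rises the median difference from the control mean was 1.46, 1.56 and 1.49 on hypoxia arrays 1 to 3. For the falls it was -1.63, -1.35 and -1.46. The 3 hypoxic root samples thus stood at similar distances from the controls in the rises and differed somewhat more in the falls. The array that stood nearest was not the same for rises and falls.

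Most genes of a cell division group fell too. It consisted of 17 genes collected by name after values had been seen (Aurora kinases, spindle checkpoint proteins, cytokinetic kinesins, replication proteins, topoisomerases and RECQ helicases). Of these 14 fell, beside 13.7% of all genes, none rose and 3 were not called, with a median of -1.04. AUR1 (AT4G32830), an Aurora kinase of mitosis, had 5.39, 5.71 and 5.75 on the hypoxia arrays, against 7.54, 7.62 and 7.42 on the control arrays, and fell 3.76-fold (log2 difference -1.91, SE 0.18, adjusted p = 1.25e-05). AUR2 (AT2G25880), its paralog, had 3.31, 3.03 and 3.33 on the hypoxia arrays, against 5.17, 4.95 and 4.65 on the control arrays, and fell 3.25-fold (log2 difference -1.70, SE 0.24, adjusted p = 0.000263). Each group was tight in both genes. TOPII (AT3G23890), topoisomerase II, which untangles replicated DNA, had 5.88, 6.65 and 6.71 on the hypoxia arrays, against 8.09, 7.94 and 7.97 on the control arrays, and fell by 1.59 (SE 0.30). PRL (AT4G02060), the MCM7 subunit of the replicative helicase, had 6.02, 5.85 and 6.11 on the hypoxia arrays, against 7.38, 7.42 and 7.40 on the control arrays, and fell by 1.41 (SE 0.16). The checkpoint genes BUBR1 and BUB3.1 fell by 1.50 and 1.11, the phragmoplast kinesin KINESIN-12B by 1.49, and POLA3 by 1.07. The fall of BUB3.2 (-1.02, adjusted p = 0.0214) was lost without hypoxia array 1 or 3 or control array 1 or 3 (log2 differences from -1.03 to -0.88). AUR3 (-0.71, adjusted p = 0.136), RECQ4B (-0.60, adjusted p = 0.056) and RECQI1 (-0.26, adjusted p = 0.278) were not called. With the 6 arrays alone AUR3 and RECQ4B were, as was RECQ4B without hypoxia array 2. A list of meristem and cell division loci overlaps this group, and 3 of its 19 loci were measured and fell. They were AUR1, AUR2 and ICU2 (AT5G67100), the catalytic subunit of DNA polymerase alpha (log2 difference -0.93, SE 0.20, adjusted p = 0.00555). Only ICU2 adds to the 17 genes above.

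Wall-remodelling families leaned to falls, with exceptions. These and the families below were also formed from gene names after values had been seen. Their counts stand beside 10.8% of all genes that rose and 13.7% that fell. A gene entered a family only through a symbol or synonym. Members without one are not counted, so the counts do not cover whole families. Of 10 xyloglucan endotransglucosylase/hydrolases, enzymes that cut and rejoin the xyloglucan between cellulose fibrils, 8 fell, 1 rose and 1 was not called (median -1.56). XTH21 (AT2G18800) had 4.46, 4.23 and 3.30 on the hypoxia arrays, against 7.14, 7.49 and 7.41 on the control arrays, and fell 10.2-fold (log2 difference -3.35, SE 0.28, adjusted p = 5.46e-06), and XTH16 (AT3G23730) had 2.23, 2.28 and 2.32 on the hypoxia arrays, against 4.78, 5.21 and 5.68 on the control arrays, and fell 7.73-fold (log2 difference -2.95, SE 0.20, adjusted p = 1.18e-06). On every hypoxia array XTH16 lay below the lower quartile, so its fold is less certain. XTH29 (AT4G18990), the 1 that rose, had 3.98, 3.86 and 3.62 on the hypoxia arrays, against 2.72, 3.18 and 2.78 on the control arrays, and rose by 0.93 (SE 0.20). EXGT-A3 was not called (0.37, adjusted p = 0.16), but was without hypoxia array 3 (log2 difference 0.57, adjusted p = 0.0296). The fall of XTH18 (-1.81, adjusted p = 0.0406) was lost without hypoxia array 2 or 3 or any 1 control array, with a second quantile normalization and with the 6 arrays alone (log2 differences from -1.96 to -1.16, the smallest without hypoxia array 3), and that of XTH20 (-1.51, adjusted p = 0.0136) without control array 1 (log2 difference -1.32, adjusted p = 0.0547). XTH18, XTH19 and XTH20 are near relatives, and how far probes of one detect another was not tested.

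Expansins split, with 6 of 24 rising and 4 falling (median 0.13). The 4 falls, EXPA7, EXPA15 (-2.35), EXPB1 (-2.14) and EXPA18, were each larger than any rise, of which EXPA20 (AT4G38210) was the largest at 1.41 (SE 0.19, and 0.82 as the mean of its rows). EXPB2 had 6.77, 8.94 and 10.30 on the hypoxia arrays, against 7.42, 7.25 and 7.57 on the control arrays, with hypoxia array 1 below every control array and the other 2 above, and was not called, though it was without hypoxia array 1 (log2 difference 2.20, adjusted p = 0.00667). Among 24 trichome birefringence-like genes, which acetylate wall polysaccharides, 9 fell and none rose, TBL37 by 2.11 (SE 0.23) and TBL19 by 1.80 (SE 0.21), while 15 were not called. When the arrays were re-centred, 8 fell and 2 rose. Of 19 family 9 glycosyl hydrolases, which include cellulases, 6 fell and 1 rose although their median was 0.15, with GH9C1 (AT1G48930) at 3.19, 5.93 and 4.34 on the hypoxia arrays, against 7.73, 7.83 and 7.75 on the control arrays, a fall of 9.73-fold (log2 difference -3.28, SE 0.46, adjusted p = 0.000275). Of 5 pectin methylesterases, which remove methyl groups from pectin, 3 fell, PMEPCRF by 1.47, ATPMEPCRD by 1.31 and ATPMEPCRB by 1.19, and 2 were not called. SKU5 (AT4G12420), a wall-anchored protein that affects the direction of root growth, had 6.29, 6.90 and 6.70 on the hypoxia arrays, against 8.08, 8.49 and 8.40 on the control arrays, and fell by 1.69 (SE 0.19, adjusted p = 4.76e-05). Its relatives sks15 and sks16 fell by 3.13 and 2.58, and sks18 was not called (0.38).

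Of 5 beta-tubulins 4 fell, TUB1 and TUB5 (AT1G20010) the most. TUB5 had 4.17, 4.60 and 4.00 on the hypoxia arrays, against 6.12, 6.68 and 6.56 on the control arrays, and fell by 2.19 (SE 0.20). TUB9 was bright and close in both groups, at 9.03, 8.80 and 8.85 on the hypoxia arrays, against 8.96, 9.06 and 8.98 on the control arrays (log2 difference -0.11, adjusted p = 0.594). TUB7 fell by 0.72. TUB6 fell by 0.77 (adjusted p = 0.0223), and this call was lost without hypoxia array 1 or 2 or control array 2 or 3 (log2 differences from -0.74 to -0.66). Of 15 IQ-domain genes, whose proteins bind calmodulin and microtubules, 7 fell and 1 rose, and 4 fell without hypoxia array 1, without control array 2 or with re-centred arrays. IQD19 (AT4G14750) had 4.44, 4.74 and 4.65 on the hypoxia arrays, against 7.49, 7.52 and 7.42 on the control arrays, with no array within 2 log2 units of the other group, and fell 7.32-fold (log2 difference -2.87, SE 0.24, adjusted p = 5.46e-06).

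Other families held members that moved far in opposite directions. Among 24 beta-glucosidases 4 rose and 5 fell. Beside BGLU31, BGLU32 (AT5G24550) had 6.75, 6.50 and 6.15 on the hypoxia arrays, against 2.65, 2.34 and 2.53 on the control arrays, and rose 15.6-fold (log2 difference 3.96, SE 0.30, adjusted p = 2.87e-06), while BGLU21 (AT1G66270) had 7.63, 9.33 and 6.99 on the hypoxia arrays, against 11.54, 11.58 and 11.46 on the control arrays, and fell 11.7-fold (log2 difference -3.55, SE 0.53, adjusted p = 0.000443). On every control array BGLU32 lay below the lower quartile, so its fold is less certain. BGLU31 and BGLU32 are paralogs that stand next to each other in the locus order. Of 6 class III peroxidases counted by name 3 rose and 1 fell, and members without such a name were left out. Prx37 (AT4G08770) had 12.06, 11.62 and 11.48 on the hypoxia arrays, against 10.34, 10.12 and 10.07 on the control arrays, and rose by 1.55 (SE 0.21), and PRX71 (AT5G64120) had 8.20, 8.44 and 6.70 on the hypoxia arrays, against 5.50, 5.30 and 4.58 on the control arrays, and rose by 2.66 (SE 0.45). PRX25 (AT2G41480) fell by 1.58 (SE 0.38). Of 32 serine carboxypeptidase-like genes 13 fell and 2 rose (median -0.13, and 0.00385 with re-centred arrays), SCPL34 (AT5G23210) falling by 2.74 and SCPL15 (AT3G12240) by 2.05. Of 5 jacalin-related lectins counted by name, proteins that bind sugars, 4 fell, JAL31 the most of the 5 (log2 difference -2.07, SE 0.24, adjusted p = 6.53e-05). Of 15 glutathione S-transferases, which attach glutathione to reactive compounds, 6 fell and 1 rose, with GSTU28 (AT1G53680) falling by 3.17 (SE 0.30) and ATGSTF13 (AT3G62760) by 2.23 (SE 0.26).

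Most measured iron deficiency genes rose. Of 24 loci 10 were measured, of which 8 rose (10.8% of all genes did), none fell and 2 were not called (median 1.70). The count was 6 with the 6 arrays alone and without hypoxia array 2, hypoxia array 3, control array 1 or control array 3. AT2G14247, among the 12 largest rises, had 7.14, 9.81 and 9.64 on the hypoxia arrays, against 3.51, 3.34 and 3.79 on the control arrays, with hypoxia array 1 lowest of its group. PYE (AT3G47640), a transcription factor that shapes the iron deficiency response in the root, had 7.39, 7.10 and 7.54 on the hypoxia arrays, against 5.81, 6.19 and 5.58 on the control arrays, and rose 2.8-fold (log2 difference 1.48, SE 0.20, adjusted p = 0.00021). AT1G47395 had 5.52, 7.44 and 7.24 on the hypoxia arrays, against 4.31, 3.44 and 3.94 on the control arrays, and rose 7.16-fold (log2 difference 2.84, SE 0.49, adjusted p = 0.00124), and AT1G47400 rose by 2.16 (SE 0.40). UGT72E1 (AT3G50740), a glucosyltransferase, rose by 1.10 (SE 0.25), and AT3G12900 by 1.91 (SE 0.46). AT5G05250 (1.91, adjusted p = 0.0249) lost its call without hypoxia array 2 or 3 or control array 1 or 3 and with the 6 arrays alone (log2 differences from 1.35 to 1.91). AT1G13609 (1.26, adjusted p = 0.0305) lost its call without hypoxia array 2 or 3 or any 1 control array, with a second quantile normalization and with the 6 arrays alone (log2 differences from 0.78 to 1.32, the smallest without hypoxia array 3). The transcription factor gene BHLH101 (0.41, adjusted p = 0.406) and AT3G56360 (0.69, adjusted p = 0.0718) were not called, though AT3G56360 was without hypoxia array 1 (log2 difference 0.96, adjusted p = 0.0154), with re-centred arrays and with array weights.

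Stress-related regulators and chaperone partners rose in part. Of 7 WRKY transcription factors, a plant family known from defence, 5 rose and none fell (median 0.89). WRKY41 (AT4G11070) had 7.72, 6.91 and 6.20 on the hypoxia arrays, against 5.39, 4.61 and 4.48 on the control arrays, and rose by 2.12 (SE 0.50, adjusted p = 0.00832), WRKY29 and WRKY6 rose by 1.06 and 1.03, WRKY22 (AT4G01250) had 8.18, 8.54 and 8.36 on the hypoxia arrays, against 7.69, 7.34 and 7.39 on the control arrays, and rose by 0.89, and WRKY20 rose by 0.73. WRKY47 had a log2 difference of -0.33 (adjusted p = 0.158) and WRKY42 of 0.13. Of 9 genes of the HSP70 chaperone system 6 rose, where 10.8% of all genes did, and none fell (median 0.77). Between 4 and 6 rose with 1 hypoxia or control array left out. HSA32 (0.89) and Fes1C (0.55) were among the calls lost, both without control array 1. Hop3 (AT4G12400), which hands proteins from HSP70 to HSP90, had 6.62, 4.87 and 5.35 on the hypoxia arrays, against 3.89, 3.49 and 3.40 on the control arrays, and rose 4.05-fold (log2 difference 2.02, SE 0.36, adjusted p = 0.00133). Hsp70-2 (AT5G02490), an HSP70 chaperone, had 5.86, 4.77 and 4.68 on the hypoxia arrays, against 3.17, 3.67 and 3.61 on the control arrays, and rose by 1.62 (SE 0.29). In both, hypoxia array 1 was the highest. It was also the highest for Fes1A (AT3G09350), an HSP70 nucleotide exchange factor, at 8.57, 6.55 and 6.59 on the hypoxia arrays, against 5.90, 5.62 and 5.63 on the control arrays. Fes1A rose by 1.52 (SE 0.42, adjusted p = 0.0181), and the log2 difference without hypoxia array 1 was 0.86 (adjusted p = 0.013). Its call was lost without control array 2 (log2 difference 1.47, adjusted p = 0.0577) and without control array 3 (log2 difference 1.48, adjusted p = 0.0515), and with the 6 arrays alone (log2 difference 1.52, adjusted p = 0.0627).

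Other large families held both rises and falls, where 10.8% of all genes rose and 13.7% fell. Of 55 UDP-glycosyltransferases 5 rose and 6 fell. UGT87A2 (AT2G30140) had 8.63, 8.32 and 8.00 on the hypoxia arrays, against 5.69, 5.97 and 5.89 on the control arrays, and rose 5.52-fold (log2 difference 2.47, SE 0.34, adjusted p = 0.000228), while UGT80B1 (AT1G43620), which glucosylates sterols, fell by 1.33 (SE 0.17). Of 67 AGAMOUS-like MADS factors 8 rose and 4 fell, AGL93 (AT5G26950) at 4.39, 5.47 and 5.01 on the hypoxia arrays, against 2.29, 2.94 and 2.24 on the control arrays (log2 difference 2.47, SE 0.36, adjusted p = 0.00031) and AGL79 (AT3G30260) at 6.74, 7.36 and 8.62 on the hypoxia arrays, against 9.45, 9.62 and 9.73 on the control arrays (log2 difference -2.03, SE 0.35, adjusted p = 0.00115). With re-centred arrays 16 of them rose. AGL93 lay below the lower quartile on every control array. Of 71 small cysteine-rich and defensin peptides 11 rose and 3 fell, and between 5 and 7 rose without hypoxia array 2 or without any 1 control array. PDF2.5 (AT5G63660), a plant defensin, had 4.93, 6.18 and 5.64 on the hypoxia arrays, against 8.73, 8.86 and 8.79 on the control arrays, and fell 9.22-fold (log2 difference -3.20, SE 0.32, adjusted p = 2e-05), and LCR25 (AT4G29305) had 5.34, 7.85 and 7.03 on the hypoxia arrays, against 1.84, 3.16 and 3.52 on the control arrays, and rose 14.9-fold (log2 difference 3.90, SE 0.69, adjusted p = 0.00136). Of 26 cytochrome P450 genes, a family of oxygenases, 5 rose and 6 fell, CYP718 by 2.35 (SE 0.21). Of 63 plastid-encoded genes 4 rose and 3 fell, rbcL, the large subunit of Rubisco, by 0.73 (SE 0.15). The count of plastid rises lay between 0 and 9 when 1 array was left out, 0 without hypoxia array 3, control array 2 or control array 3 and 9 without control array 1.

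**Figure D3:**
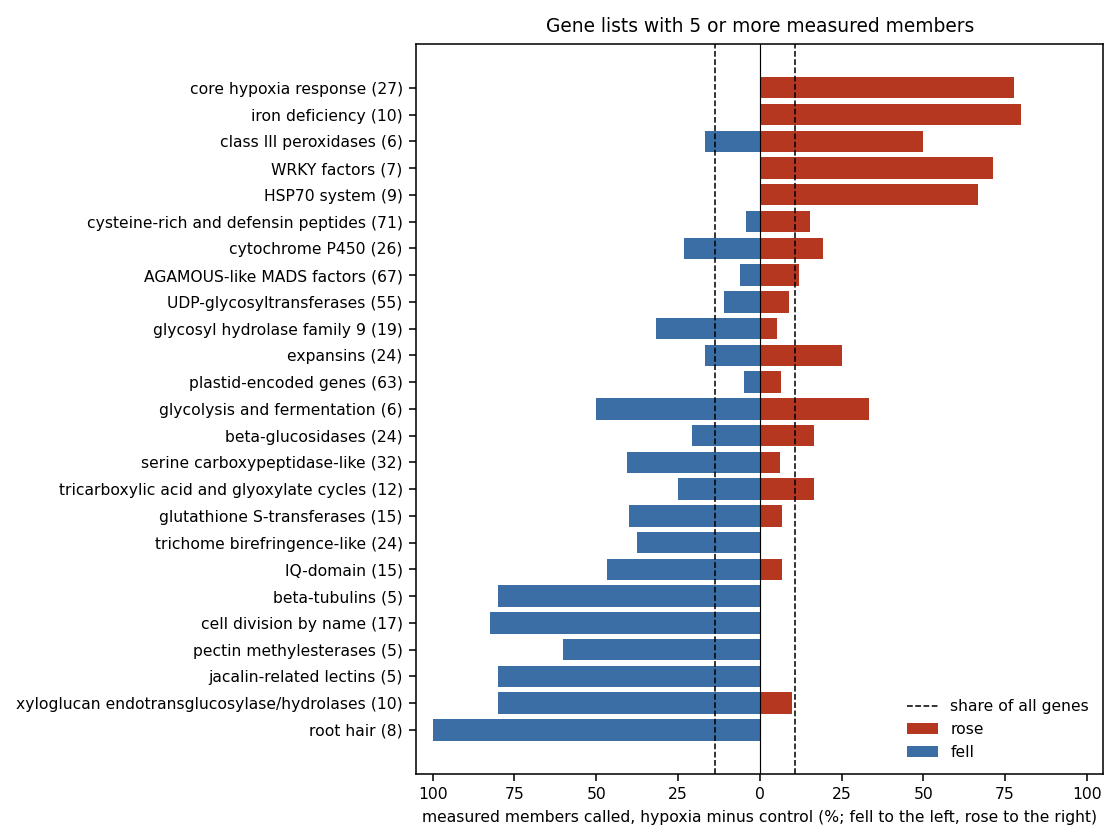
Percentage of the measured members of each list that rose (red, to the right) or fell (blue, to the left) in hypoxia minus control, for lists with 5 or more measured members (their number in brackets), ordered by median log2 difference. Dashed lines mark the shares of all 16550 genes, 10.8% that rose and 13.7% that fell. Core hypoxia and iron deficiency genes stand at the top and root hair genes at the bottom.

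The label of root tissue was set against markers. The 8 root hair genes had group means between 5.86 and 9.02 in control, none below the lower quartiles of all control arrays. Under hypoxia their means lay between 3.07 and 5.38, about the range of the green tissue genes given below. On the hypoxia arrays these means alone thus do not tell root from green tissue. Of 17 Casparian strip and suberin loci 1 was measured (AT5G37690, 7.32, 7.58 and 8.83 on the hypoxia arrays, against 7.31, 7.49 and 7.29 on the control arrays, not called), and of 8 phloem loci none. Of 17 xylem and secondary wall loci 1 was measured, GUT2 (AT1G27440), which builds xylan. It fell by 0.65 (adjusted p = 0.012), and by 0.55 without control array 2 (adjusted p = 0.0606). Of 27 genes of green tissue 4 were measured, with group means between 3.27 and 5.94 under hypoxia and between 3.76 and 6.10 in control, and a summed log2 signal between 18.2 and 19.3 and between 17.8 and 20.5. RCA, Rubisco activase, rose by 0.63 (adjusted p = 0.0296), a call lost without hypoxia array 2 or 3 or control array 1 or 3 (log2 differences from 0.55 to 0.62). LHCB4.1, an antenna protein of photosystem II, fell by 0.62 (adjusted p = 0.0145), a call lost without hypoxia array 3 or control array 2 or with a second quantile normalization (log2 differences from -0.54 to -0.46). LHB1B2 (-0.18) and PSAN (-0.49) were not called. The part that a change in cell types had in the results above was not tested.

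Neighbouring genes were compared next. In the locus order of protein-coding genes, 375 genes that rose at least 2-fold had a measured next gene. In 51 of these (13.6%) that gene rose at least 2-fold too, where 3.51% of all measured genes in the order did. In 15 (4%) it fell, where 6.08% did. Of 644 genes that fell at least 2-fold with a measured next gene, the next gene fell in 67 (10.4%) and rose in 14 (2.17%). There were 11 runs of at least 3 neighbours called at least 2-fold in one direction, 4 of rises and 7 of falls, with 37 genes in all. Neighbours often arose by duplication, and how far probes for one copy also detect its neighbour was not tested.

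The longest run held 6 genes on chromosome 5, AT5G52670 to AT5G52720, all of which rose. AT5G52680 had 8.52, 7.83 and 7.64 on the hypoxia arrays, against 4.34, 3.80 and 4.06 on the control arrays, and rose 15.2-fold (log2 difference 3.93, SE 0.22, adjusted p = 3e-07). AT5G52690 had 8.18, 8.06 and 7.31 on the hypoxia arrays, against 5.20, 3.79 and 2.95 on the control arrays, and AT5G52700 had 9.47, 9.09 and 9.61 on the hypoxia arrays, against 6.75, 5.98 and 5.42 on the control arrays, rises of 14.6-fold and 10.1-fold. The end members rose by 2.01 (AT5G52670) and 2.88 (AT5G52720), and AT5G52710 by 1.28. The groups overlapped in AT5G52670 and AT5G52710, where the lowest hypoxia array stood below the highest control array. Both calls were lost without hypoxia array 1, control array 2 or control array 3 and with the 6 arrays alone (log2 differences from 1.47 to 2.01 for AT5G52670 and from 0.91 to 1.28 for AT5G52710).

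On chromosome 1, runs of opposite direction stood close together. AT1G52050, AT1G52060 and AT1G52070 all ranked among the 12 largest falls. A few genes further on, AT1G52120 had 7.36, 7.45 and 7.70 on the hypoxia arrays, against 3.20, 3.67 and 3.69 on the control arrays, and rose 15.8-fold (log2 difference 3.98, SE 0.31, adjusted p = 2.87e-06), AT1G52130 had 7.85, 7.99 and 8.29 on the hypoxia arrays, against 5.02, 4.79 and 4.36 on the control arrays, and rose 9.99-fold (log2 difference 3.32, SE 0.32, adjusted p = 1.73e-05), and AT1G52140 rose 2.63-fold. Between the runs, AR791 (AT1G52080) and AT1G52100 were not called (0.13 and -0.05), and AT1G52110 fell by 0.77, a call lost without hypoxia array 1 or 2 or control array 1 or 3, with array weights and with the 6 arrays alone (log2 differences from -0.79 to -0.61). Another run of rises on chromosome 1 held AT1G51020 (3.56), AT1G51030 (3.29) and AT1G51035 (2.12), the first and second with every control array below its lower quartile. On chromosome 5, AT5G39110, AT5G39120 and AT5G39130 rose by 2.97, 1.42 and 3.46. The falls included 4 neighbours on chromosome 3, AT3G50130 to AT3G50160, between -2.41 and -1.23, and the extensin-type gene HRGP1 with AT3G54580 on one side and DJ1F (-3.20, SE 0.30) on the other.

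**Figure D4:**
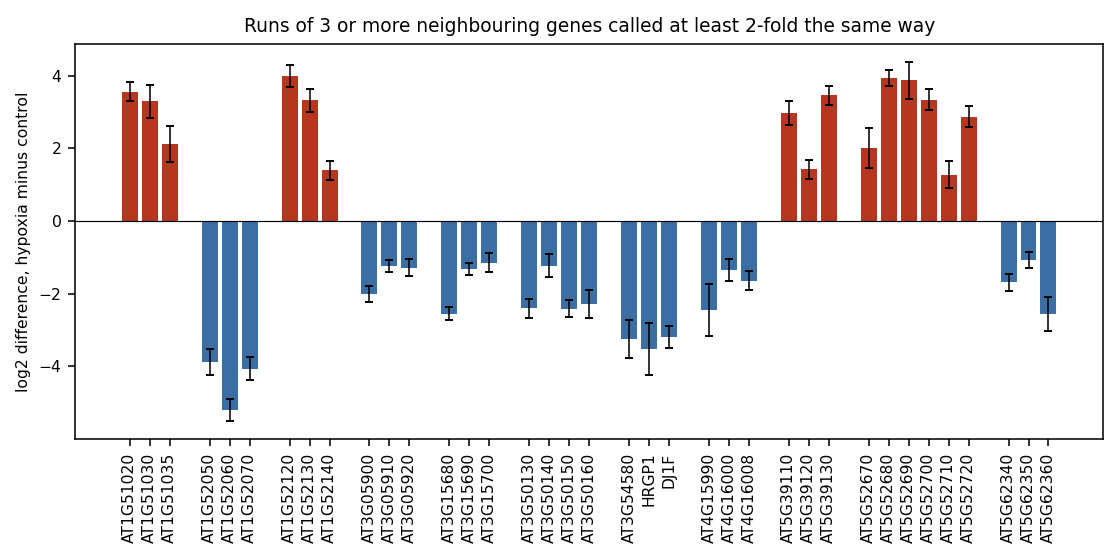
Log2 difference, hypoxia minus control, with its SE, for the 37 genes of the 11 runs of at least 3 neighbouring protein-coding genes called at least 2-fold the same way, in locus order with a space between runs. The run of 6 rises from AT5G52670 to AT5G52720 is the longest, and the falls at AT1G52050 to AT1G52070 are followed by rises at AT1G52120 to AT1G52140.

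The same change of oxygen was measured a second time in roots that also received arsenate, as combination minus arsenic, with group means from 6 arrays that give no group mean of hypoxia minus control. All 12 arrays set the spread used for both. In combination minus arsenic 1986 of 16550 genes were called (12%), 882 rises (5.33%) and 1104 falls (6.67%). With array weights 3527 were, without combination array 2 it was 1177, and without arsenic array 3 it was 1065. Of the 1791 genes that rose under hypoxia alone, 458 also rose there, which is 25.6% of the hypoxia list and 51.9% of the combination list, and 39 fell. Of the 2269 that fell, 753 also fell there, 33.2% and 68.2% of the lists, and 14 rose. Among changes of at least 2-fold, 256 of the 587 rises (43.6%) and 534 of the 999 falls (53.5%) were called the same way. With each comparison fitted on its own 6 arrays, 380 genes rose in both, 27.6% of 1379 and 49.5% of 768, and 647 fell in both, 32.5% of 1990 and 63.4% of 1021. All 3 largest rises were, AT5G10040 with 7.51, AT3G29970 with 6.81 and AT1G12805 with 5.90. Of the core hypoxia list 21 rose in combination minus arsenic as well and none fell (median 2.05), of the root hair list 7 of 8 fell (median -2.63), and of the cell division genes 6 of 17 fell (median -0.47). ICL rose by 4.56 and PDC2 by 2.05, whereas the WRKY factors had 2 rises and the HSP70 system 1.

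Whether the hypoxia change differed with arsenate was tested by the interaction, the difference of combination minus arsenic less that of hypoxia minus control. It was called for 457 of 16550 genes (2.76%), with 221 positive (1.34%) and 236 negative (1.43%). The count was 213 without control array 2, 252 without control array 3, 252 and 278 without combination arrays 2 and 3, 255 and 225 without arsenic arrays 1 and 3, and 886 with array weights. The interaction uses the hypoxia and control arrays that also gave the calls above, so its direction among called genes is not read as a result. AT4G32950, one of the 12 largest rises, changed by 0.02 in combination minus arsenic (interaction -5.57, SE 0.63, adjusted p = 0.000847). Its mean log2 signal was 9.02 under hypoxia, 9.11 in the combination and 9.08 with arsenate, and 3.42 in control, so that all 3 treatments lay far above the control. scpl33 went the other way, with 2.63 under hypoxia, 2.41 in the combination and 2.49 with arsenate, and 6.50 in control (interaction 3.79, SE 0.25, adjusted p = 1.75e-05). AT1G62510 had the largest positive interaction (4.05, SE 0.41, adjusted p = 0.000412), with a fall of 1.26 under hypoxia alone and a rise of 2.79 in combination minus arsenic. In the core hypoxia list 2 of the 21 called genes passed the interaction, AT3G29970 (-0.87, adjusted p = 0.0461, a call lost under 12 alternatives) and AT5G47060 (-1.46, adjusted p = 0.0366), and in the root hair list none of 8.

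Hypoxic roots were also set against roots given arsenate alone, a comparison that uses the same hypoxia arrays as hypoxia minus control. They differed in 3638 of 16550 genes (22%), 1601 higher (9.67%) and 2037 lower (12.3%). AT5G10040 was higher by 7.59 (SE 0.29), PDC2 by 2.13 (SE 0.21) and ICL by 3.94 (SE 0.34), and HRGP1 differed by -2.44 (SE 0.72, adjusted p = 0.0287). Fes1A had a difference of -2.11 (SE 0.42, adjusted p = 0.00344) and Hop3 of -1.50 (SE 0.36, adjusted p = 0.0101), with a mean of 5.61 under hypoxia and 7.11 with arsenate, and 3.59 in control.

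**Figure D5:**
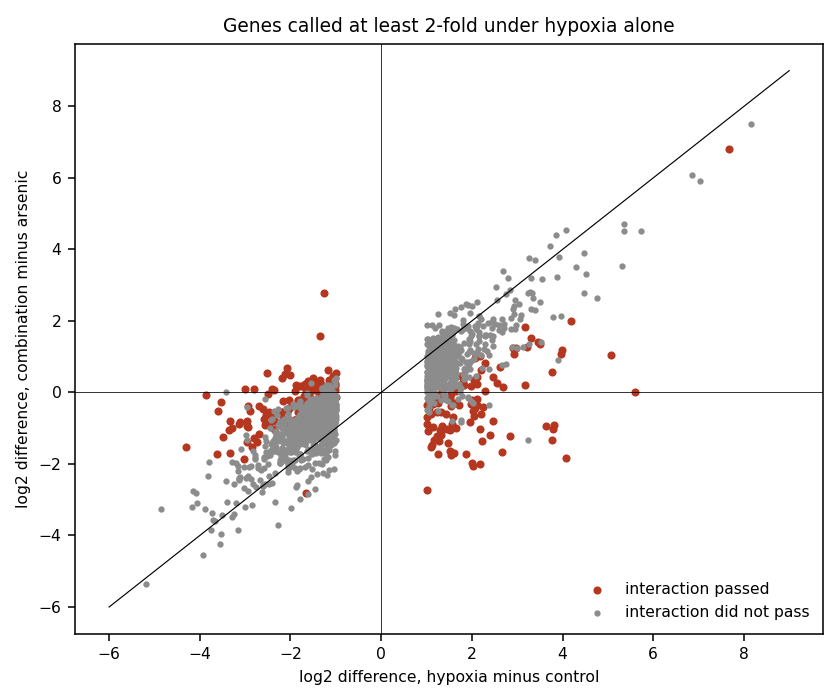
Log2 difference of combination minus arsenic (y axis) against that of hypoxia minus control (x axis) for the 1586 genes called at least 2-fold under hypoxia alone, with genes that passed the interaction in red, the others in grey, and the line of equal change. AT5G10040 lies at 8.15 and 7.51, and among the other 11 largest rises some lie well below the line, such as AT4G32950 at 5.60 and 0.02 and AT2G30670 at 5.07 and 1.03.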

How the data were processed

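RNA of roots was hybridised to Affymetrix arrays with the GeneChip WT PLUS kit. Per the submitters' processing notes, the authors made the deposited log2 values with RMA in Expression Console of Affymetrix, given as 1.4 and 1.4.1, and the notes also list Transcriptome Analysis Console 3.1. No filter or further normalization was applied. Of 38408 rows, 16722 named 1 gene and 16574 of these matched RefSeq (TAIR10.1, used for names and gene order only). The row with the highest mean over 12 arrays stood for a gene. The build behind the array is not given in the sources used here, so no coordinates are printed, and no promoter or protein sequence was used.

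All 12 arrays were fitted with limma 3.58.1 in R 4.3.3 (group means, eBayes, two-sided, Benjamini-Hochberg over 16550 genes, threshold 0.05). The submitters describe the 3 replicates of a group as independent, and the number of arrays limits the precision. On simulated data for hypoxia minus control of 16550 genes, changes of 1.5, 2, 4 and 8-fold were given to 50 genes each, and the fit recovered 3, 30, 49 and 48 of them and called 8 of 16350 unchanged genes. Far fewer genes carried a change there than were called in the data. The simulated noise was independent, with no shift between arrays, so these rates need not hold for the real fit. Genes were named by rule, the 12 largest rises and 12 largest falls with groups that do not overlap, up to 4 called members per list, all members of lists of 10 or fewer, the 4 and 4 largest interactions, and HRA1 and CML38. Some were left out for length, and further members were named after their values were seen. The comparison, members and lists were chosen with earlier results of these data known, and lists got no set test. The alternatives tried were the 6 arrays alone, a replicate block, re-centring, a second quantile normalization, other eBayes settings, array weights, bright genes only, the mean of a gene's rows, all rows, and each array left out (arsenic and combination arrays only for combination minus arsenic and the interaction).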

Additional observations from a re-analysis of the deposited data

Results flagged for a closer look

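For the 11 genes given here the hypoxia difference differed with arsenate by the interaction test, which all 16550 genes entered. Other named genes passed it too, among them AT1G52120 (-2.80, adjusted p = 0.00532), AT5G39120 (-2.02, adjusted p = 0.0118) and AT5G39130 (-2.06, adjusted p = 0.0119). LHCB4.1 (1.26, adjusted p = 0.0115), AUR1 (1.13, adjusted p = 0.0328) and AT5G47060 passed as well. AT1G52120 also rose by 3.55 with arsenate alone against control. Of the 11 genes 8 were named for the size of their interaction, so that they passed is how they were chosen. AT3G29970, AT2G30670 and AT2G27402 were named only for their change under hypoxia. The value was negative in 6 of the 11. It was -5.91 in AT2G41730 (SE 0.60, adjusted p = 0.000432), which rose by 4.08 under hypoxia alone and changed by -1.84 in combination minus arsenic. The other negative values were -5.57 in AT4G32950, -5.09 in AT2G30660, -4.80 in AT2G38823, -4.03 in AT2G30670 and -0.87 in AT3G29970 (adjusted p = 0.0461). The positive values were 4.05 in AT1G62510, 3.79 in scpl33, 3.28 in AT5G46900, 3.23 in AT3G46490 and 2.76 in AT2G27402. AT2G30660 and AT2G30670 have adjacent locus numbers. For AT3G29970 the interaction was lost under 12 alternatives, with values from -0.91 to -0.74. AT3G46490 was called in hypoxia minus control at -0.77 (adjusted p = 0.0414) but not without hypoxia array 1 or 2 or control array 2 or 3, with re-centred arrays, with a second quantile normalization or with array weights (log2 differences from -0.77 to -0.62).

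Rows of the table with no listed gene also carried signal that differed from control. In a fit of all 38408 rows, 1257 of the 20927 rows with no listed gene rose and 2570 fell (18.3% called). Of the rows of the genes tested, 21.0% were called in that fit.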

How the results depend on the processing

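The count of 4060 genes called lay between 2836 and 4987 over all alternatives but that of all rows, and that of falls between 1724 and 2339. Rises numbered 3153 with re-centred arrays, 1176 among genes above the median mean signal, and between 1112 (without control array 2) and 1659 with 1 hypoxia or control array left out. In a fit of all rows, added after the data were seen, 7517 rows were called, 2796 rises and 4721 falls. Calls of at least 2-fold numbered 1049 among bright genes and between 1465 and 1693 with 1 hypoxia or control array left out. With array weights 3527 genes were called in combination minus arsenic and 886 in the interaction, which ranged from 213 to 502 with 1 of the 12 arrays left out. Combination minus arsenic ranged from 1065 to 1824 with 1 combination or arsenic array left out, which was added after the data were seen. Among bright genes alone, where fewer genes are tested, 4 root hair, 5 iron deficiency (rises), 3 xyloglucan endotransglucosylase/hydrolase, 3 beta-glucosidase, 7 serine carboxypeptidase-like, 1 jacalin-related and 1 cytochrome P450 gene fell or rose as their list did, and 1 expansin, 3 AGAMOUS-like factors and 0 cysteine-rich peptides rose. With re-centred arrays 4 IQ-domain genes fell and 16 AGAMOUS-like factors and 13 plastid-encoded genes rose, and with a second quantile normalization 2 plastid-encoded genes rose. With the 6 arrays alone 7 cysteine-rich peptides and 1 plastid-encoded gene rose. With 1 hypoxia or control array left out the ranges were 4 to 7 for IQ-domain falls, 5 to 11 for cysteine-rich rises, 0 to 9 for plastid rises and 0 to 1 for green tissue rises.

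With the replicate block 4169 genes were called, 1633 of them at least 2-fold, 2061 in combination minus arsenic and 552 in the interaction. Deviations of hypoxia and control arrays with the same number correlated at r = 0.292, -0.013 and 0.127 for numbers 1 to 3, so the numbers were not taken as pairs, and not every array correlated best with its own number. Of 3193 values of named genes over all alternatives, 3049 kept direction and side of the threshold, 124 fell short of it, 20 passed it and 0 reversed. The dimmest genes, below the lower quartile in control or, for falls, in hypoxia, have the least certain folds.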
